A study of Mus musculus with 7 samples.

Results

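Open chromatin at 10 genes of the canonical Wnt pathway was followed in 7 ATAC-seq peak lists from mouse cortical progenitors. The genes were taken by name: the ligand genes Wnt7a, Wnt7b and Wnt8b, the genes Apc, Gsk3b and Axin2 of the beta-catenin destruction complex, the beta-catenin gene Ctnnb1, and the transcription factor genes Lef1, Tcf7l1 and Tcf7l2. They are 10 of the 21887 protein-coding genes on chromosomes 1 to 19, X and Y in the gene table used. A locus was the span of the gene with flanks of 50 kb (GRCm38), and a peak belonged to a locus that it touched by at least 1 bp. ATAC-seq uses a transposase to insert adapters into open DNA, and a peak is a stretch where the authors' caller found more insertions than its background.

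The cells were CD15-positive progenitors sorted by FACS from the embryonic brain of CD-1 mice at E14.5, the dorsal telencephalon per the series' design text. There were 3 wild-type libraries and 4 libraries of genotype L3mbtl3 -/-, here called knockout, with no treatment and 1 time point. L3mbtl3 encodes an MBT-domain chromatin protein, described in the series title as interacting with PRC1, a Polycomb complex. The labels do not describe the allele, do not say how many embryos went into a library or whether replicates came from separate embryos, and mention heterozygous cells in a protocol shared by all libraries. P-values therefore measure the spread between these libraries, which may be technical.

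In the canonical pathway a Wnt ligand binds a Frizzled receptor with Lrp5 or Lrp6 and stops the destruction complex, built on Axin and Apc with the kinase Gsk3b, from marking beta-catenin for degradation. Beta-catenin then enters the nucleus and joins TCF/LEF proteins at target genes, among them Axin2, a feedback inhibitor. In the developing cortex Wnt8b is known from the medial edge, Wnt7a and Wnt7b from the progenitor zone and neurons, and the pathway for its part in progenitor growth and dorsal identity.

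The peak lists held 6458 to 11394 peaks in wild-type and 3366 to 17362 in knockout libraries, and the read depth behind them is unknown. Knockout library 4 had the longest list and knockout library 3 the shortest. L3mbtl3 itself had 1 peak inside its span in wild-type library 1 and 1 in knockout library 4. None lay within 1 kb of an end in any library, so these lists do not check the knockout. Of 11 dorsal progenitor markers, 3 had a locus peak in every library, against 6.9% of all protein-coding genes. In at least 1 library 10 had one, and Hes1 had none, where 30.8% of all genes had none. Sox2 had peaks in knockout library 4 alone, as had 12.7% of all genes, and Hes5 in knockout libraries 3 and 4 alone. The summed peaks of the 11 markers ran from 7 to 15 in wild-type and from 7 to 27 in knockout libraries. Of the 4 neuron markers, Tbr1 had a locus peak in every library, Dcx in all but wild-type library 3, Neurod6 in 3 libraries and Tubb3 in knockout library 4 alone. Of the 5 ventral markers, Gad2 had locus peaks in every library, Dlx1 and Dlx2 in knockout library 4 alone, and Gad1 and Gsx2 had none. The 2 endothelial genes had peaks in knockout library 4 alone, 1 each. Meningeal genes had 1 to 2 peaks in every library, with none at Col1a1, and microglial and blood genes had 0 to 3. The part of these markers in the results was not tested.

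The 10 loci held 46 peaks in the 7 libraries, and Tcf7l1 alone held 22 of them (47.8%). Wild-type libraries 1, 2 and 3 had 4, 6 and 4 peaks in the 10 loci, and knockout libraries 1, 2, 3 and 4 had 4, 4, 4 and 20. All libraries but knockout library 4 therefore lay between 4 and 6, and that library held 43.5% of the peaks in the loci. It held 27.6% of all peaks, a share that also counts peaks far from genes. In 10 average protein-coding loci it had 11.8 peaks, against 2.11 to 6.34 in the other libraries. The wild-type mean was 4.67 ± 1.15 and the knockout mean 8 ± 8 peaks (SD, n = 3 and 4), and without knockout library 4 the difference of 3.33 peaks turned to −0.667. It was 0.583 with each list held, by p, to the length of the shortest and 0.50 with peaks of a −log10 q (the authors' adjusted p on a log scale) of at least 5. Per 10000 peaks of the same list, the loci held 5.37, 5.27 and 6.19 peaks in wild-type and 4.07, 5.63, 11.9 and 11.5 in knockout libraries. The high values were those of knockout libraries 3 and 4, and the former rests on 4 peaks in a list of 3366. As a list, the 10 loci had a median of 2 peaks over the 7 libraries, the same as the median of 2 over all protein-coding genes.

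**Figure D1:**
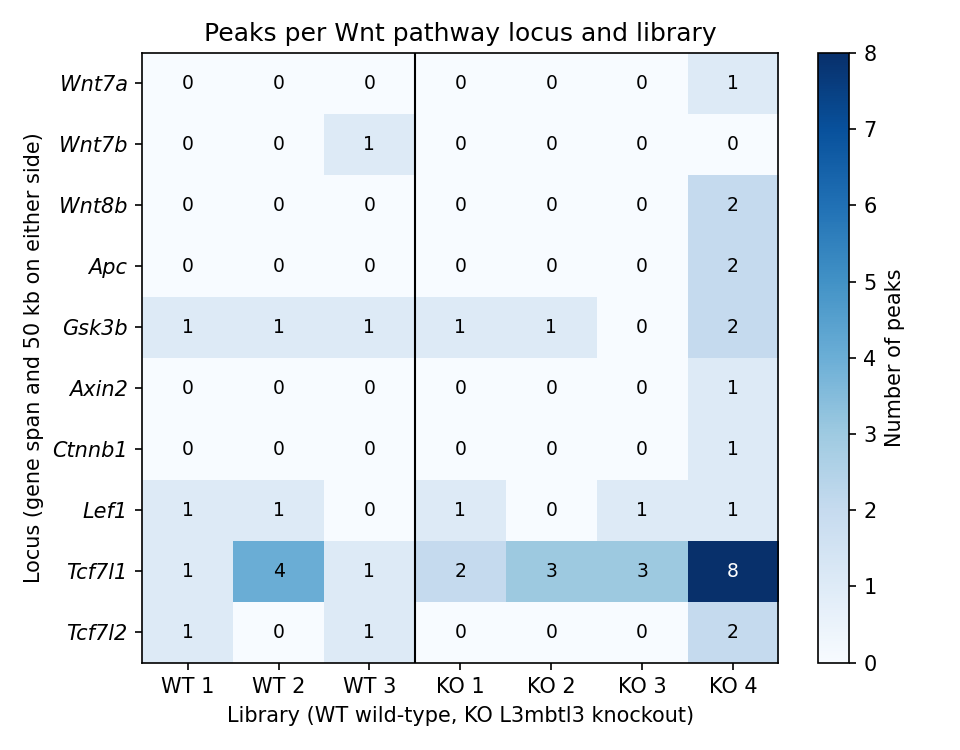
Number of peaks at each of the 10 loci (vertical) in each library (horizontal), with the number printed in its cell. The Tcf7l1 row holds 22 of the 46 peaks, and 5 rows are at 0 outside the column of knockout library 4.

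**Figure D2:**
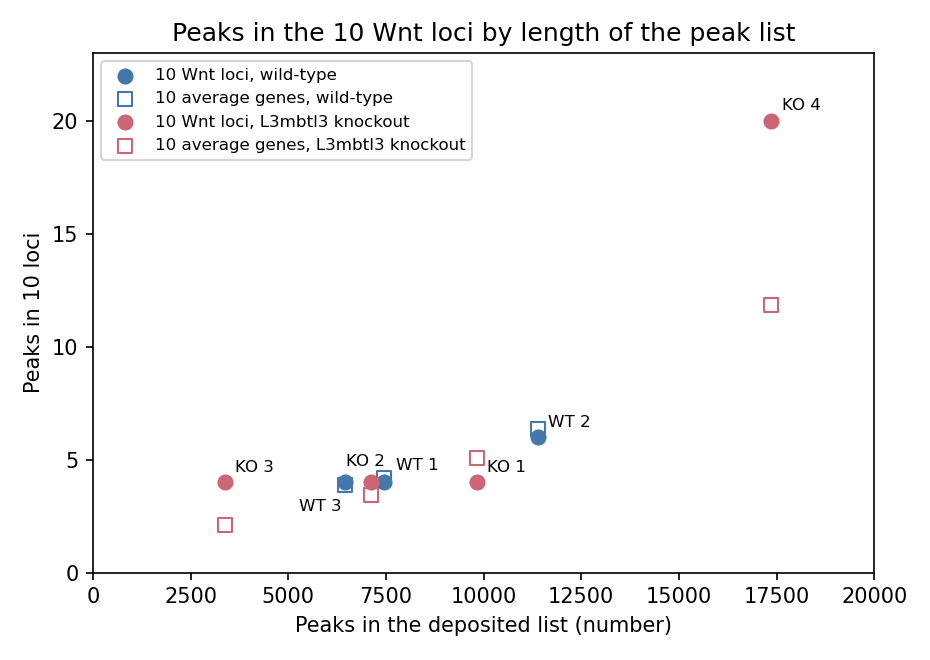
Peaks in the 10 loci (filled circles) and in 10 average protein-coding genes (open squares), on the vertical axis, by the number of peaks in each library's list (horizontal), wild-type in blue and knockout in red. Knockout library 4 had 20 peaks in the 10 loci where 10 average genes held 11.8, and knockout library 3 had 4 where 10 average genes held 2.11.

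A peak in every library was found at 1 of the 10 loci, Tcf7l1, where 6.9% of all protein-coding genes had one. None of the 10 loci was without a peak in all libraries, against 30.8% of all genes. At 5 loci, Wnt7a, Wnt8b, Apc, Axin2 and Ctnnb1, the peaks came from knockout library 4 alone, against 12.7% of all genes. These 5 loci had no peak in the other 6 libraries, wild-type or knockout.

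Most regions at these genes were called in a single library. Merging the overlapping peaks of all libraries gave 23 regions in the 10 loci. Of these, 16 (69.6%) were called in 1 library, against 48.4% of all 25623 regions of the series. The 25623 include regions far from genes and the 23 do not, so these shares have no common base. Knockout library 4, which held 27.6% of all peaks, gave 13 of the 16. Its share of all regions called in 1 library is not given here, so the 13 are not read as a trait of these loci. None of the 23 was called in all 7 libraries, against 5.06% of all regions. Among the 46 peaks, 26 had a −log10 q below the median of their own list, and 2 reached a −log10 q of 5, which 9.98% of all peaks did. The authors' fold enrichment ran from 3.40 to 6.43 and the widths from 85 to 593 bp, with a median of 171 bp against 163 bp for all peaks. In bulk chromatin, fewer cells with a site open and less opening per cell cannot be told apart.

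Recurrent regions, those called in at least 3 of the 7 libraries, numbered 5, with 3 in Tcf7l1, 1 in Lef1 and 1 at the start of Gsk3b. At least 1 such region was found at 3 of the 10 loci, against 33% of all genes. All 5 lay in or across the start of the member gene, 3 of them in Tcf7l1. For 1 of the 5 the distance to a gene end was 1 kb or less. Of all 9000 recurrent regions of the series, 50.1% touched a gene and 19.7% were that close to an end. The 5 were drawn only from windows built around genes, and the Tcf7l1 span fills 162675 of the 262675 bp of its window. Touching a gene is favoured by that choice, so these shares have no common base and show no enrichment inside genes. The gene table gives no exons, so exon and intron positions are not stated.

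The ligand genes had few peaks, none of them recurrent and none inside the genes. Wnt7a (chromosome 6, 91363981 to 91411353) had 0 peaks in each wild-type library and in knockout libraries 1 to 3, and 1 in knockout library 4. That peak lay 17.7 kb beyond the gene (chr6:91346104-91346270) with a −log10 q above 80.4% of its list. Wnt7b (chromosome 15, 85535437 to 85581821) had 1 peak, in wild-type library 3, 31.7 kb from the gene (chr15:85613545-85613678), and 0 in the other 6 libraries. It was the 1 locus of the 10 with no peak in knockout library 4. Wnt8b (chromosome 19, 44493472 to 44514273) had 2 peaks in knockout library 4 and 0 elsewhere. One of the pair lay 27.1 kb before the Wnt8b start, and the other lay across an end of Hif1an, a neighbouring gene for an asparagine hydroxylase of the hypoxia response.

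Recurrent regions were found farther from these ligand genes. The nearest to Wnt7a was 61.7 kb away between genes (chr6:91301894-91302238), called in 2 of 3 wild-type lists and 4 of 4 knockout lists. The nearest to Wnt7b was 277.7 kb away in Gtse1, in 1 of 3 and 2 of 4, and the nearest to Wnt8b was 818.2 kb away in Slc25a28, in 3 of 3 and 3 of 4. Distance alone does not tie any of them to a Wnt gene.

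In the destruction complex, the start of Gsk3b was the recurrently open site. Gsk3b (chromosome 16, 38089001 to 38246084), the kinase that phosphorylates beta-catenin, had 1 peak in each of wild-type libraries 1, 2 and 3, 1 in knockout libraries 1 and 2, 0 in library 3 and 2 in library 4. The genotypes overlapped, with means of 1 ± 0 and 1 ± 0.816 (SD, n = 3 and 4). The region at the start (chr16:38088720-38089400) was called in 3 of 3 wild-type lists and 3 of 4 knockout lists, all but knockout library 3. It did not differ beyond the spread between libraries (Fisher's exact p = 1, two-sided). Among the 8 members whose starts are listed, Gsk3b alone had a peak within 1 kb of a listed transcript start in at least 3 libraries. Of all 27025 genes with a listed start, 7.92% had one in at least 3 libraries and 2.2% in at least 6. That set is larger than the 21887 protein-coding genes used elsewhere. In any library, 3 of the 8 had a start peak (Gsk3b, Axin2 and Tcf7l2), against 19.6% of the 27025. Listed starts were matched for all members but Wnt7b and Apc.

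The peaks at Gsk3b did not all cover the same bases. Relative to the transcript start, taken as 0, wild-type libraries 1, 2 and 3 had peaks from 64 to 399, from −249 to 305 and from −230 to −52. Knockout libraries 1, 2 and 4 had peaks from 94 to 322, from −281 to 183 and from −270 to 322. Of the 15 pairs of these peaks 13 overlapped. The exceptions were the peak of wild-type library 3, which lay before the start, against those of wild-type library 1 and knockout library 1, which lay after it. The 6 peaks stood in the lower and middle range of their lists, with 31.6% to 49.99% of each list at a lower −log10 q and folds of 4.22 to 4.79.

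**Figure D3:**
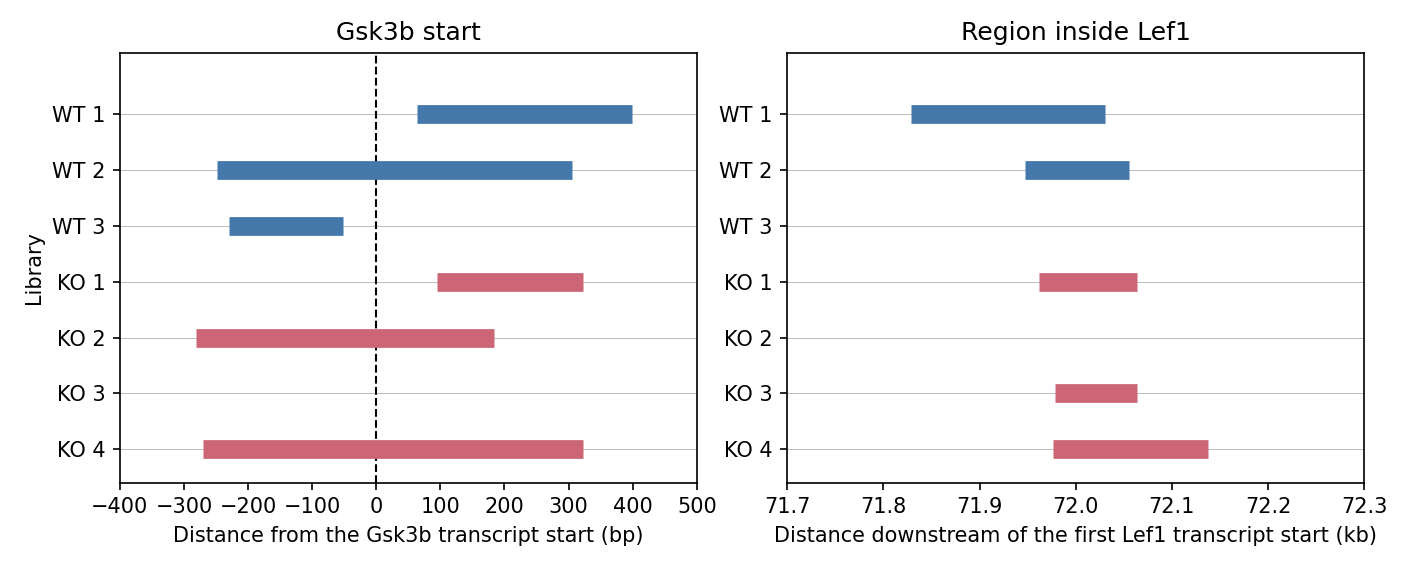
Extent of each library's peak (bars, wild-type blue and knockout red) against the distance from the Gsk3b transcript start in bp (left) and downstream of the first Lef1 start in kb (right), with libraries as rows. At Gsk3b the bars of wild-type library 3 and of wild-type library 1 and knockout library 1 lie on opposite sides of the start. At Lef1 the 5 bars share 53 bp.

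The Gsk3b promoter sequence is shown because it is the member promoter that several libraries called. The 250 bases before the start (RefSeq, GRCm38.p6, chr16:38088751-38089000, plus strand) are given in lower case. Capitals mark matches on either strand to the motifs searched.
Gsk3b: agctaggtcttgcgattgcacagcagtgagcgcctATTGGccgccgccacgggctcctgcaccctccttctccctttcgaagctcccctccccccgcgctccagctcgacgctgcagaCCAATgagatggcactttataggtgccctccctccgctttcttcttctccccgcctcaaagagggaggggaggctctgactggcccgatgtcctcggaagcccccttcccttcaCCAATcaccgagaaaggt
The motifs searched were CTTTGAT for the TCF/LEF factors with its variant form CTTTGTT, the E-box CAGCTG with its variant form CAGATG, the NF-Y motif CCAAT and the GC box GGGCGG. The Gsk3b window held 3 matches to CCAAT, beginning 215, 132 and 18 bases before the start, and none to the others. CCAAT was found in 33.8% of the 32851 listed promoter windows of this length, GGGCGG in 32.7%, CAGATG in 14.4%, CAGCTG in 13.0%, CTTTGTT in 5.03% and CTTTGAT in 3.21%. Peaks of wild-type libraries 2 and 3 covered 249 and 179 of the 250 bases, those of knockout libraries 2 and 4 covered all 250, and those of wild-type library 1 and knockout library 1 covered 0. A match is a run of letters and does not show binding.

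The scaffold genes of the complex were called in knockout library 4 alone. Apc (chromosome 18, 34220297 to 34322190), a scaffold that holds beta-catenin in the complex, had 2 peaks there and 0 in the other 6 libraries. One lay inside Apc, 27.3 kb from its nearest end, and the other lay across an end of Srp19, the neighbouring signal recognition particle gene. Axin2 (chromosome 11, 108917828 to 108950783), both a scaffold and a target of the pathway, had 1 peak there and 0 elsewhere. It ran from 48 to 463 bp after the listed start, with 18.6% of its list at a lower −log10 q. A region between genes 60.9 kb from Axin2 (chr11:109011644-109012095) was called in 3 of 3 wild-type lists and 3 of 4 knockout lists, and the nearest recurrent region to Apc, 185.1 kb away, in 3 of 3 and 2 of 4.

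Ctnnb1 (chromosome 9, 120933400 to 120960507), the beta-catenin gene, had no peak at either of its listed starts in any library. Its locus had 0 peaks in each wild-type library and in knockout libraries 1 to 3 and 1 in knockout library 4. That peak lay inside the neighbouring kinase gene Ulk4 (chr9:121001867-121002232), above 54.8% of its list. The nearest recurrent region was 495.7 kb from Ctnnb1, inside Myrip, in 2 of 3 wild-type lists and 1 of 4 knockout lists.

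Among the TCF/LEF genes, Tcf7l1 carried the most open regions of the 10 loci. Tcf7l1 (chromosome 6, 72626371 to 72789045) encodes a TCF protein known mainly as a repressor of Wnt targets. It had 1, 4 and 1 peaks in wild-type libraries 1, 2 and 3 and 2, 3, 3 and 8 in knockout libraries 1, 2, 3 and 4. Knockout library 4 was the highest and wild-type library 2 came next, so the genotypes overlapped. The means were 2 ± 1.73 and 4 ± 2.71 peaks (SD, n = 3 and 4), and the difference of 2 was within the spread (exact permutation p = 0.457, two-sided, and 1 with Benjamini-Hochberg adjustment over 21887 genes). It was 0.667 without knockout library 4. Without wild-type library 2 the genotypes did not overlap, at 1 and 1 against 2 to 8 peaks (exact permutation p = 0.267, where 0.0667 is the smallest possible), as in 0.466% of all genes in that direction and 0.297% in the other. Per 10000 peaks of the list, the values were 1.34, 3.51 and 1.55 in wild-type and 2.04, 4.22, 8.91 and 4.61 in knockout libraries, which overlapped as well.

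The peak number at Tcf7l1 was high for a gene of any kind. With 22 peaks over the 7 libraries it was matched or exceeded by 1.49% of protein-coding genes, and 3.52% had at least 3 recurrent regions. Its window held 11.96 peaks per Mb and library against a median of 2.09 over all genes, and 95.5% of genes had a lower value. The gene is 162675 bp long. The other members ran from 0.969 at Wnt7a to 3.89 at Gsk3b, and 4 of the 10 were above that median.

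Of the 22 peaks, 19 lay inside Tcf7l1, and none lay within 1 kb of its listed start. A region 143.3 kb downstream of the start (chr6:72645417-72645712) was called in wild-type libraries 2 and 3 and in knockout libraries 1, 2, 3 and 4. Wild-type library 1 lacked it. It held the strongest peaks of the 10 loci, with folds of 4.38 to 6.43 and a −log10 q of 5.36 in knockout library 2 and 5.53 in knockout library 4, above 90.6% and 92.6% of their lists. A region 121.5 kb downstream (chr6:72667196-72667574) was called in wild-type libraries 1 and 2 and in all 4 knockout libraries. Wild-type library 3 lacked it, so that each of these regions was called in 2 of 3 wild-type lists and 4 of 4 knockout lists (Fisher's exact p = 0.429 each, two-sided, and 1 with Benjamini-Hochberg adjustment over 25623 regions). In both, all 15 pairs of peaks overlapped, sharing 94 bp in the first and 178 bp in the second.

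The other regions inside Tcf7l1 were called less widely. One 77.3 kb downstream (chr6:72711309-72711759) was called in wild-type library 2 and knockout libraries 2 and 4, and one 58.3 kb downstream (chr6:72730479-72730701) in wild-type library 2 and knockout library 4. The remaining regions inside the gene, 19.5 and 152.6 kb downstream, were called in knockout library 4 alone, each above 1.92% of its list. Outside the gene, a region across the ends of the neighbours Elmod3 and Retsat, 27.9 kb beyond Tcf7l1 (chr6:72598387-72598511), was called in 0 of 3 wild-type libraries and in knockout libraries 3 and 4. The retinol saturase gene Retsat and Elmod3 lie close together, so the region cannot be given to either, and knockout library 4 had a further peak at an end of Tgoln1, a trans-Golgi protein gene.

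**Figure D4:**
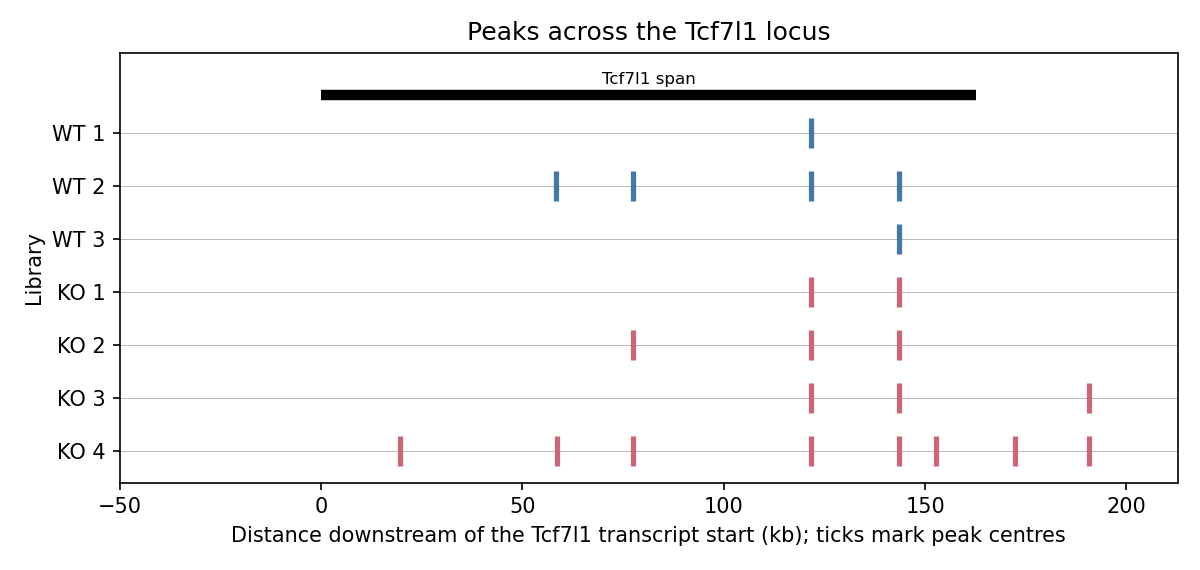
Peaks across the Tcf7l1 locus (ticks at peak centres, wild-type blue and knockout red, black bar for the gene span), with distance downstream of the transcript start in kb on the horizontal axis and libraries as rows. The columns of ticks near 121.5 and 143.3 kb are each present in 6 of 7 libraries, and the start has none.

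Lef1 (chromosome 3, 131110297 to 131224357), the TCF/LEF gene best known as an activator partner of beta-catenin, had a single region. Its locus had 1, 1 and 0 peaks in wild-type libraries 1, 2 and 3 and 1, 0, 1 and 1 in knockout libraries 1, 2, 3 and 4. The genotypes overlapped, with means of 0.667 ± 0.577 and 0.75 ± 0.5 (SD, n = 3 and 4, exact permutation p = 1). The region lay inside the gene, 71.8 kb after the first of 4 listed starts and 25.8 kb after the nearest (chr3:131182126-131182434). All 10 pairs of its 5 peaks overlapped. Their rank varied from 1.26% of the list at a lower −log10 q in wild-type library 1 to 72.8% in knockout library 4. No listed start of Lef1 had a peak within 1 kb in any library.

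Tcf7l2 (chromosome 19, 55741797 to 55933659), the longest of the 10 genes and another TCF gene of the brain, had 4 regions and none shared between libraries. Its locus had 1, 0 and 1 peaks in wild-type libraries 1, 2 and 3 and 0, 0, 0 and 2 in knockout libraries 1, 2, 3 and 4. The means were 0.667 ± 0.577 and 0.5 ± 1 (SD, n = 3 and 4, exact permutation p = 1). One peak of knockout library 4 covered the first listed start, from −126 to 30 bp, with 16.7% of its list at a lower −log10 q. The other lay 84.5 kb downstream of that start, that of wild-type library 3 lay 46.6 kb downstream, and that of wild-type library 1 lay 7.51 kb beyond the gene. The nearest recurrent region was 128.5 kb beyond the gene, in 2 of 3 wild-type lists and 2 of 4 knockout lists.

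The Tcf7l2 promoter is printed for comparison with that of Gsk3b, as the other member whose bases before a listed start were touched by a peak. The 250 bases are from RefSeq (GRCm38.p6, chr19:55741560-55741809, plus strand), with capitals as above.
Tcf7l2: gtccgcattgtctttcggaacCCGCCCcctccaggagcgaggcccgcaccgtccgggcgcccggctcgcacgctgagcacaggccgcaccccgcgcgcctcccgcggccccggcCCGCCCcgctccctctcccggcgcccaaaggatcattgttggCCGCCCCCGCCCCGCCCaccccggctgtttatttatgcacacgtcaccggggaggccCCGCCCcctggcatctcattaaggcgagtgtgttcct
It held 6 matches to GGGCGG or its reverse complement, some of them overlapping, and none to the other motifs. The peak of knockout library 4 covered 126 of the 250 bases. The GC share of the window was 72.8% against 62% at Gsk3b and a median of 52.4% over all windows.

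Comparing the genotypes over all 10 genes, no locus separated them. The peak numbers overlapped at 10 of 10 loci. Among all protein-coding genes, 0.0914% had every knockout library above every wild-type library and 0.146% the reverse, 0.238% in all. A count of 0 among 10 loci is near that share and is not read as a trait of these genes. The knockout mean was higher at 7 of the 10 loci, against 40.5% of all genes, the wild-type mean at 2 (Tcf7l2 and Wnt7b), against 26.2%, and the means were equal at Gsk3b, against 33.3%. The median difference was 0.25 peaks over the 10 loci and 0 over all genes. Without knockout library 4 the knockout mean was higher at 1 locus, Tcf7l1, against 12.4% of all genes, and the wild-type mean at 3, against 32.9%. In the exact permutation test 0 of the 10 genes had an unadjusted p under 0.05, the smallest being 0.429 at Wnt7b, while 50 of all 21887 genes (0.228%) did. With Benjamini-Hochberg adjustment 0 of all genes passed, and the smallest p that 7 libraries allow is 0.0286. Such a p cannot show that the genotypes were alike.

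Single regions gave the same picture. None of the 23 regions was present in all lists of 1 genotype and absent from all lists of the other. Of all regions, 0.133% were so for wild-type and 0.109% for knockout, and 0 of 23 is near these shares. Of the 23, 6 were called in both genotypes, 3 in wild-type libraries only (2 at Tcf7l2 and 1 at Wnt7b) and 14 in knockout libraries only. Of these 14, 13 were called in knockout library 4 alone and the other was that of Elmod3 and Retsat. All 3 regions of wild-type libraries only were called in 1 library each. There were 4 knockout lists against 3 wild-type lists, and knockout library 4 held 27.6% of all peaks. The same split over all 25623 regions is not given here, so that of the 23 is not read as a trait of these loci.

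Of 79 other genes of the pathway, none separated the genotypes, where 0.238% of all protein-coding genes did. A count of 0 among 79 genes is near that share. A locus peak was present in every library at 6 of the 79 (7.59%, against 6.9% of all genes) and in none at 14 (17.7%, against 30.8%). The exact permutation test gave 0 of the 79 an unadjusted p under 0.05, against 0.228% of all genes, the smallest p being 0.143. The knockout mean was higher at 34, against 40.5% of all genes, and the wild-type mean at 29, against 26.2%. Without knockout library 4 the knockout mean was higher at 11, against 12.4% of all genes, and the wild-type mean at 35, against 32.9%. The locus peak numbers of the 79, summed, ran from 37 to 61 in wild-type libraries and from 16 to 49 in knockout libraries 1 to 3. In knockout library 4 the sum was 111. Some of these loci overlap, such as those of Wnt6 and Wnt10a. A peak there counts more than once, and such loci are not separate units.

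By role, the 16 other ligand genes and the 12 receptor genes had no locus with a peak in every library, against 6.9% of all genes; in groups this small a count of 0 is near that share. Lgr4, a receptor for the R-spondins that amplify Wnt signals, had the most peaks of the 79. Its locus had 6, 7 and 4 in wild-type and 6, 6, 4 and 8 in knockout libraries, with means of 5.67 ± 1.53 and 6 ± 1.63 (SD, n = 3 and 4, exact permutation p = 0.80). Next came the co-repressor genes Tle1, with means of 3 ± 1.73 and 3.5 ± 1.73, and Tle4, with 3.67 ± 0.577 and 3 ± 2.94 (SD, n = 3 and 4). Wls, which carries Wnt ligands to the cell surface, had 2.33 ± 0.577 and 2.75 ± 0.957, and Sfrp4, a secreted Wnt inhibitor, 2.33 ± 0.577 and 2 ± 1.41 (SD). The genotypes overlapped at all 5.

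A peak in every library did not always lie in the gene that names the locus. Inside Wls and Tle1 a region was called in all 7 libraries, and at Lgr4 1 lay across an end of the gene and 1 inside. The region called in all 7 libraries at the locus of Dvl3, a cytoplasmic relay of the pathway, lay by an end of Ap2m1, that at Gsk3a lay in Cic, and that at Sfrp4 in Nme8. Of the TCF/LEF genes, Tcf7 had 1 locus peak in knockout library 4 and 0 elsewhere. Of the 5 target genes, Lgr5 had 1, 1 and 0 locus peaks in wild-type and 3, 1, 1 and 4 in knockout libraries, with means of 0.667 ± 0.577 and 2.25 ± 1.5 (SD, n = 3 and 4, exact permutation p = 0.286). The genotypes overlapped there. Ccnd1 and Myc had means of 0.667 ± 0.577 and 0.25 ± 0.5 and of 1 ± 1 and 1 ± 0.816 (SD, n = 3 and 4), and Sp5 and Nkd1 had no peak in any library.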

How the data were processed

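Accessibility was measured by ATAC-seq with a Nextera kit in 3 wild-type and 4 knockout libraries, grouped by the titles in the labels. The submitters' processing notes list the build GRCm38, the aligner Bowtie2 (2.3.5.1), the peak caller MACS2, and also SAMtools (1.9), deepTools (3.3.0), FastQC (0.11.8) and CASAVA (1.9). Settings, and whether reads were shifted for the transposase, are not given in those notes as used here. The authors deposited 1 broad peak list per library, with a score (not used), a fold ratio over background, and −log10 p and −log10 q values, of which the smallest −log10 q was 1.30 to 1.32. These deposited values were used for ranks and thresholds inside each list. No read counts are given, so depth is unknown and no counting interval was set.

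Peaks were assigned to gene spans and 50 kb flanks from RefSeq (GRCm38.p6), and peaks overlapping by at least 1 bp were merged across libraries. Locus peak numbers of all protein-coding genes were compared with an exact permutation test over 35 splits, and regions with Fisher's exact test, both two-sided with Benjamini-Hochberg adjustment over all genes or regions (Python 3.11.15, scipy 1.17.1). The permutation test was checked on simulated data. It recovered most loci with a peak in nearly all libraries of 1 genotype and few of the other. It recovered few loci with a graded change, simulated as a many-fold rise of peak number in knockout. Fisher's exact test was not part of that check. Same-numbered libraries were not treated as pairs. Alternatives changed the flank, the q threshold, list length, merging, coverage and the libraries used. The members and gene lists were chosen with earlier results of these data known. Named were all members, L3mbtl3, member regions called in at least 3 libraries, the genes such regions touch, and the 5 other pathway genes with most peaks; further genes and regions, and the Tcf7l2 promoter, were added after their values were seen.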

Additional observations from a re-analysis of the deposited data

Results flagged for a closer look

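In 11 of 19 values compared within the knockout group, 1 library stood far from the other 3, and knockout library 4 was the one in 10 of them. Chance gives about 1 in 20 for continuous values, and that share does not hold for these small tied counts: a single peak in 1 library and 0 in the others meets the rule by construction. Of all genes, 12.7% had a peak in knockout library 4 only. Its peaks in the 10 loci numbered 20 against 4 in each of the others, and 12 against 1 to 2 with Tcf7l1 left out. It had a peak at 9 loci against 2 to 3. Its locus peaks numbered 8 at Tcf7l1 against 2 to 3, 2 each at Tcf7l2, Wnt8b and Apc against 0, and 1 each at Ctnnb1, Axin2 and Wnt7a against 0. Knockout library 2 stood apart at Lef1, with 0 peaks against 1 in each of the others. These values are not independent, since they come from the same lists, and knockout library 4 had 17362 peaks against 3366 to 9827. Per 10000 peaks of the list, the sum over the 10 loci in knockout library 4 (11.5) did not stand apart from that of knockout library 3 (11.9).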

How the results depend on the processing

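No gene or region of the 10 loci passed the Benjamini-Hochberg adjustment under any alternative. The difference of 3.33 peaks (knockout minus wild-type) over the 10 loci ran from −0.667 to 4.67 when single libraries were left out, and turned to −0.667 without knockout library 4. It was 0.583 when lists were cut to equal length, 0.50 with a −log10 q minimum of 5, 1.92 to 2.42 with narrower flanks or none, and 5.25 with flanks of 100 kb. With the replicate block, which pairs libraries of the same number and also drops knockout library 4, it was −0.667. The block changed no call, and its smallest possible p is 0.25. In a check of pairing, correlations over genes were −0.0248 to 0.0636 for same-numbered libraries and −0.125 to 0.0967 for other pairs. Of the 3 wild-type libraries, 2 correlated better with a knockout library of another number. These values serve only to compare pairs. They do not measure how far the raw locus peak numbers of the libraries agree. Without Tcf7l1, an alternative chosen after seeing the data, the difference was 1.33 peaks, and −0.145 per 10000 peaks of the list. The 5 recurrent regions became 0 at −log10 q of at least 5, 1 with equal lists and 3 when only peaks covering 50% or more of a region counted. The first 2 settings drop weak peaks by construction. Loci whose genotypes did not overlap numbered 0 to 1 of the 10, and 0 to 3 of the other 79 pathway genes, when single libraries were left out, with both highest values without wild-type library 2 (Tcf7l1; Rspo3, Btrc and Amer1). With flanks of 100 kb 1 of the 79, Btrc, had wild-type counts of 1 to 2 against 0 (exact permutation p = 0.0286, the smallest possible), as did 0.16% of all genes in that direction. Pathway genes with a peak in every library fell from 6 to 3 in the gene span only and to 0 at −log10 q of at least 5. Of 150 single-locus values 2 changed sign, Tcf7l2 to 0.167 in the gene span only and Lef1 to −0.25 without wild-type library 3 (−0.25 to 0.333 over single libraries left out). Of 55 values for single regions 4 did, in percentage points of libraries calling: Lef1 to −25 without wild-type library 3 (−25 to 33.3 over single libraries) and −8.33 with the 50% rule, Gsk3b to 16.7 with that rule, and the Tcf7l1 region at 121.5 kb to −8.33 with equal lists. A fall to 0 was not counted as a change of sign. Without knockout library 4 the locus difference was 0 at Ctnnb1, Axin2, Lef1, Wnt7a, Wnt8b and Apc. The locus difference at Gsk3b was 0 to begin with and could not be counted. Causes were not tested. Read depth is unknown, so a missing peak does not show closed chromatin.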
